A study of Mus musculus with 12 samples.

Results

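Open chromatin regions in gene deserts are described here, that is, regions whose midpoint lay more than 200 kb from the body of every protein-coding gene. They were found by position alone, on chromosomes 1 to 19 of the mouse build mm10, with gene bodies from RefSeq. Of 93083 regions merged over the 6 deposited peak lists, 5930 were desert regions. The regions came from ATAC-seq, in which a transposase cuts open chromatin and leaves sequencing adapters there. The embryos were mice at embryonic day 7.5 on a mixed C57Bl6/J x CD-1 background, of both sexes together and without the extraembryonic part. All of them were homozygous for a knock-in allele that joins FoxA2 to the red fluorescent protein tagRFP through a linker, so no group had untagged FoxA2. The allele was otherwise wild type (WT) or had, in addition, a deletion of 10 residues within an alpha helix (dHx). Cells of about 10 embryos were sorted on tagRFP. High cells were brighter than heterozygous cells, Middle cells reached up to the heterozygous maximum and lay above the autofluorescence of untagged cells, and Negative cells lay below that. Each library took 2000 to 5000 cells, and the 12 samples form 6 groups of 2, named WT High, WT Middle, WT Negative, dHx High, dHx Middle and dHx Negative. The sort used the tagged protein itself, so a change in FoxA2 and a change in which cells pass a gate cannot be told apart here.

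Gene deserts are long stretches of the genome without protein-coding genes. Many flank genes of development, and some hold enhancers, switches that act on a promoter far away by folding of the chromosome. The deserts around Sox9 and Sox2 are textbook cases. FoxA2, a forkhead protein needed to form endoderm, node and notochord, is known as a pioneer factor, which can bind its sites in closed chromatin and help to open them.

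The sequences that can be shown are promoter windows of long non-coding RNA (lncRNA) genes that start inside deserts, from 250 bases before to 50 bases after the start, from RefSeq for GRCm38.p6. They are shown because desert regions overlapped them, by 268 of 300 bases for Gm32050, 199 for Gm40604, 86 for Gm46343, 118 for Gm35688 and all 300 for D230030E09Rik. Gm32050, Gm40604 and Gm46343 are the 3 whose region was in the 4 RFP-positive lists (WT High, WT Middle, dHx High, dHx Middle) and in neither Negative list. Gm35688 lies in the desert beside Shh, and D230030E09Rik, in the desert between Sp4 and Sp8, had a region in all 6 lists. They were picked after their values were seen. Each is printed 5′ to 3′ on the strand of its gene, and capitals mark matches to the forkhead motifs TGTTTAC or TATTTAC on either strand. The windows are chr8:26629346-26629645 (minus strand) for Gm32050, chr10:15760024-15760323 (minus) for Gm40604, chr12:25303526-25303825 (plus) for Gm46343, chr5:28903474-28903773 (minus) for Gm35688 and chr12:118530144-118530443 (minus) for D230030E09Rik.
Gm32050: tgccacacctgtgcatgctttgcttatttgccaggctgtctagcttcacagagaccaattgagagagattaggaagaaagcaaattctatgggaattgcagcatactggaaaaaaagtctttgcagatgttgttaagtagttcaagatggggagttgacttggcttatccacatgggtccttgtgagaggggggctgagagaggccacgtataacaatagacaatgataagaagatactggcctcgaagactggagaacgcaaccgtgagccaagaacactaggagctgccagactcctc
Gm40604: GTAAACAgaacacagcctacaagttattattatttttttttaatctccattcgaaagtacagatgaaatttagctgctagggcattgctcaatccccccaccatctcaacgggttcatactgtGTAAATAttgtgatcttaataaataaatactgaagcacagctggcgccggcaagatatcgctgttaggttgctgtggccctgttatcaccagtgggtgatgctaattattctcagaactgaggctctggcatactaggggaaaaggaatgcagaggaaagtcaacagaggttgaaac
Gm46343: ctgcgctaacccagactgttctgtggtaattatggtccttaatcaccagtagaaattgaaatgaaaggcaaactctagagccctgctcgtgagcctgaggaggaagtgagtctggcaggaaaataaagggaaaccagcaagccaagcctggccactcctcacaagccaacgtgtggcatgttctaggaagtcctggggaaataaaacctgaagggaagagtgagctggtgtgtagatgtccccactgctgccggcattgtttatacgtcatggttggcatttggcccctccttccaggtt
Gm35688: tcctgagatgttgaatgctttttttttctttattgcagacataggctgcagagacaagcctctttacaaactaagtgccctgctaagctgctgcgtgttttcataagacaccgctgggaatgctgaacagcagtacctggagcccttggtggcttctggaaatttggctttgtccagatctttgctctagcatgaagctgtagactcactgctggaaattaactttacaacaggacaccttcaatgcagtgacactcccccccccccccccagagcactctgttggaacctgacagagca
D230030E09Rik: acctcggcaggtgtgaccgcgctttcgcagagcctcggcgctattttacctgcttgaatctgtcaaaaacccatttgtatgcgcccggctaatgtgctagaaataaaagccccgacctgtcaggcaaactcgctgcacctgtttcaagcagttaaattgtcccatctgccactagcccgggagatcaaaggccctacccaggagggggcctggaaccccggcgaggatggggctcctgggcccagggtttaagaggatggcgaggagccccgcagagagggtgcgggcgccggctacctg
Of these 5 windows, the window of Gm40604 held 2 forkhead matches and the others held none. Its match at bases 124 to 130 lay inside the deposited region, 22 bp from the region's end, and the match at bases 1 to 7 lay outside it. A match is a description of the letters and does not show that a factor bound.

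The lists hold 36070 (dHx High) to 48244 (dHx Negative) peaks on these chromosomes. Each list was made from the pooled samples of a group. So there is no replicate to compare, no difference was tested, and every interval below is a Clopper-Pearson 95% interval for counting error only. The sources used here give no read numbers. A background fitted to the authors' scores stood in for depth. The fit took the scores as −log10 of Poisson p-values and was not repeated for q-values. This background was lowest in dHx High (0.476 in mean pileup per base), followed by dHx Middle (0.786), WT High (0.879), WT Negative (1.08), WT Middle (1.5) and dHx Negative (1.57). As a check of the labels, peaks within 50 kb of a gene were counted. Shh, a secreted hedgehog ligand made in the notochord, had 5 in both High lists against 1 (WT) and 2 (dHx) in the Negative lists. Hand1, which marks lateral and extraembryonic mesoderm, had 1 in both High lists against 7 and 4. Foxa2 had 7 to 13 peaks in every list, Negative ones included, and Actb, a constitutive gene, had 7 to 11.

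Desert regions were sparse. The stretches where a midpoint can lie more than 200 kb from a gene make up 19% of the chromosomes, counted from 3 Mb to the last gene, and held 12.8 regions per Mb, against 44.8 elsewhere, a 3.49-fold difference. The median distance to a gene was 361 kb (quartiles 264 and 569 kb), 1868 regions (31.5%) lay more than 500 kb away, and the farthest lay 2188 kb away. They fell into 641 deserts, with a median of 7 regions and a maximum of 67. In 66 deserts there was a single region, and 237 deserts with 10 or more held 70.2% of the regions. Not every desert is empty of genes: lncRNA gene bodies covered the midpoints of 810 regions (13.7%), against 16.4% of the regions outside genes but within 200 kb of one. More than 200 kb from a gene of any kind, non-coding included, lay 487. The annotation does not count the gene segments of antigen receptors as protein-coding, so 138 regions within 200 kb of such a segment were members too. Of those, 67 lay in the desert that holds the T cell receptor alpha segments, between Gm36448 and Dad1.

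The share of a list's peaks that lay in deserts differed between the lists. WT High had the highest share, with 2529 desert peaks (5.72%, 5.51 to 5.94), and dHx High the lowest, with 1523 (4.22%, 4.02 to 4.43). In WT Middle it was 4.79% (2134 peaks), in WT Negative 5.26% (2023), in dHx Middle 4.46% (1678) and in dHx Negative 5.47% (2640). Cut to the strongest 36070 peaks each, so that lists are equally long, the shares were 5.44%, 4.70% and 5.21% in WT High, Middle and Negative, and 4.22%, 4.43% and 5.13% in dHx High, Middle and Negative, and dHx High stayed lowest. The intervals of WT High (5.20 to 5.68) and dHx High then still did not overlap. The first rank of WT High did not hold among stronger peaks. With the 20000 strongest peaks WT Negative was highest (4.75%, against 4.44% in WT High), and among the strongest decile WT Middle was (3.99%, against 3.47% in WT High and 3.62% in WT Negative). Of the strongest decile of peaks, 1.68% (63 of 3742, 1.30 to 2.15) lay in deserts in dHx High, against 3.01% to 3.99% in the other lists. The list with the fewest desert peaks was also the list with the lowest background, and the part of depth in its low share was not tested.

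**Figure D1:**
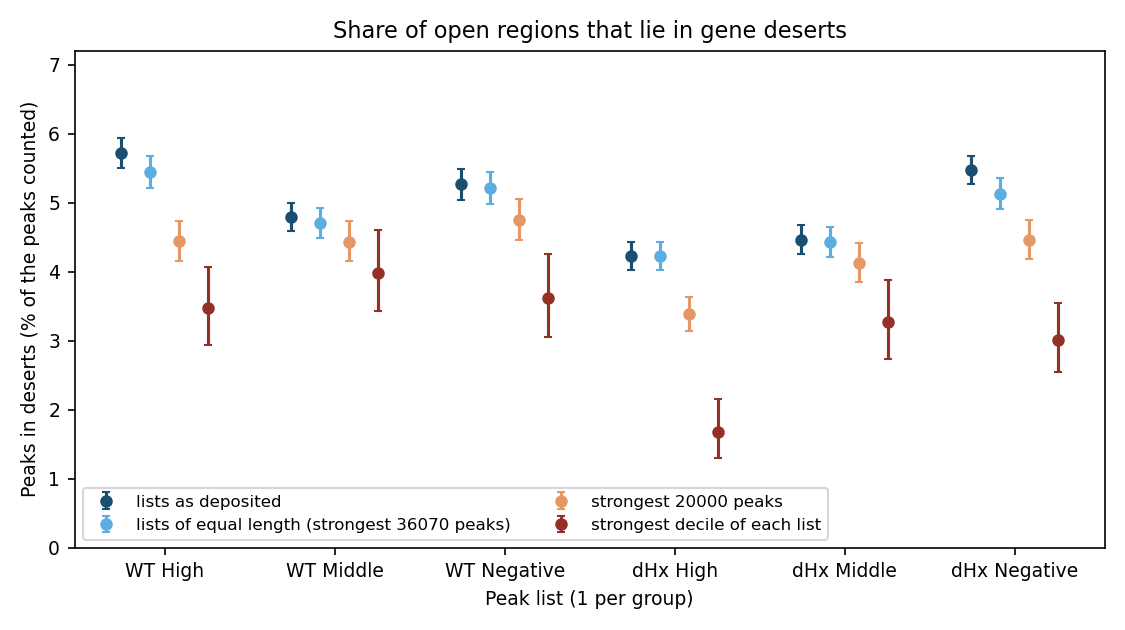
The share of peaks in deserts (vertical axis, % of the peaks counted) in each peak list, with Clopper-Pearson 95% intervals, for the lists as deposited, lists of equal length, the strongest 20000 peaks and the strongest decile. The dHx High list is lowest in each of the 4 counts, from 4.22% as deposited to 1.68% in the strongest decile.

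Desert regions were shared less widely than regions near genes. In a single list stood 3217 of them (54.2%, 53.0 to 55.5), against 44.1% of all regions, 50.6% of regions 50 to 200 kb from a gene and 41.0% of regions inside genes. All 6 lists held 319 desert regions (5.38%, 4.82 to 5.98), against 14.1% of all regions, 6.55% at 50 to 200 kb and 17% inside genes. The step from genes to 50 kb and beyond was larger than the step into the deserts. Desert peaks had a median score percentile within their list of 40.6 in WT High and 42.1 in dHx High. Over all peaks it was 48.7 and 50.3, and at 50 to 200 kb it was the same as in deserts. In WT Middle and dHx Negative it was also lower than over all peaks, and in WT Negative and dHx Middle it was equal. The part of peak strength in the sharing was not tested. Regions in dHx Negative alone were 15.1% of desert regions (895) against 11.4% of all regions, and those in WT High alone 12.6% (748) against 8.34%. In dHx High alone stood 5.53% (328), the same share as of all regions, and in dHx Middle alone 4.70% (279) against 4.77%. A desert region in all 6 lists had a median width of 952 bp, and one in a single list 276 bp, against 1044 and 286 bp over all regions. Close to the 200-kb limit the values ran on: 51.4% of the 1174 regions at 200 to 250 kb and 52.7% of the 1668 at 150 to 200 kb were in a single list. At more than 500 kb it was 56.3%.

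**Figure D2:**
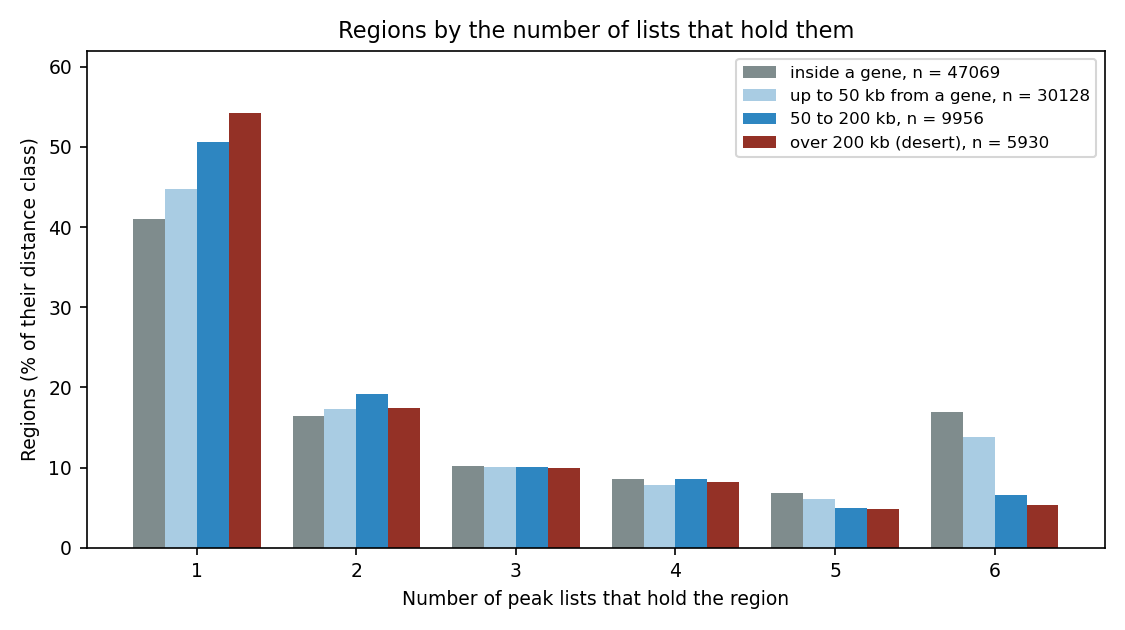
Regions by the number of peak lists that hold them (horizontal axis), as a % of the regions of their distance class (vertical axis). Bars for deserts are highest at 1 list (54.2%) and stand at 5.38% for 6 lists, and those for 50 to 200 kb lie close to them.

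The first question was which desert regions were open in RFP-High cells and not in RFP-Negative cells. In WT, 1608 of 2529 High desert peaks (63.6%, 61.7 to 65.5) had no Negative peak, where 48.8% of all WT High peaks had none. In the other direction it was 1094 of 2023 WT Negative desert peaks (54.1%), where 41.0% of all WT Negative peaks had no High peak. In dHx, 823 of 1523 High desert peaks (54.0%, 51.5 to 56.6) had no Negative peak, against 39.0% of all, and 1939 of 2640 Negative desert peaks (73.4%, 71.7 to 75.1) had no High peak, against 53.8% of all. In each allele the larger share was that of the list with more desert peaks, High in WT and Negative in dHx. Matches are counted from both sides, so this direction largely restates which list has more desert peaks. With lists of equal length the WT shares were 59.2% and 56.9%, with overlapping intervals, and the dHx shares 60.3% and 67.4%. At 50 to 200 kb from genes the 4 shares were 61.3%, 52.0%, 51.9% and 70.7%, with intervals that overlapped those of the deserts.

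The comparison of the alleles asked which desert regions open in WT were not open when FoxA2 lacked the helix residues. At High RFP, 1589 of 2529 WT desert peaks (62.8%, 60.9 to 64.7) had no dHx peak, where 42.6% of all WT High peaks had none, and 577 of 1523 dHx desert peaks (37.9%, 35.4 to 40.4) had no WT peak, where 30.5% of all had none. At Middle RFP the shares were 52.7% (1125 of 2134) of WT desert peaks against 40.9% of all, and 39.2% (657 of 1678) of dHx desert peaks against 30.9% of all. In the Negative gate 40.1% (811 of 2023) of WT desert peaks had no dHx peak, against 28.9% of all, and 54.2% (1432 of 2640) of dHx desert peaks had no WT peak, against 43.6% of all. WT High against dHx High was the single comparison of these 10 in which the interval of the deserts lay clear of that at 50 to 200 kb (56.5%, 55.0 to 58.0). Outside these 10, the intervals also lay apart in some comparisons within an allele and overlapped in the rest. WT High without WT Middle had 56.8% (54.9 to 58.8) in deserts against 51.7% (50.2 to 53.2) at 50 to 200 kb. WT Negative without WT Middle had 53.6% against 49.5%, and dHx Negative without dHx Middle 69.3% against 64.4%. In 4 of the 5 pairs behind the 10 comparisons, the list with the higher background had the larger share of unmatched desert peaks. The exception was WT High against WT Negative. Outside these pairs, WT High against WT Middle also ran the other way. Its unmatched shares were 56.8% in WT High and 48.5% in WT Middle, which had the higher background. In all 5 pairs, and in WT High against WT Middle, the larger share was that of the list with more desert peaks. The parts of list length and depth in these shares were not tested.

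**Figure D3:**
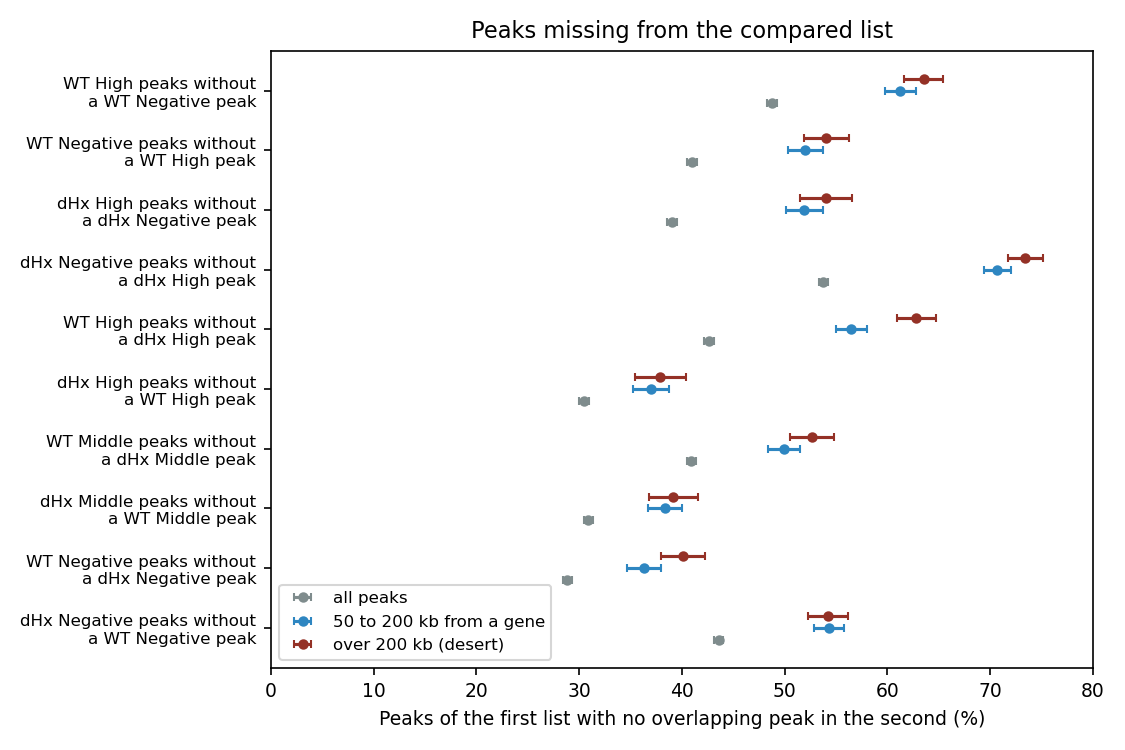
Peaks of the first-named list with no overlapping peak in the second (horizontal axis, %), for all peaks, peaks 50 to 200 kb from a gene and desert peaks, with Clopper-Pearson 95% intervals. Desert shares lie above those of all peaks in all 10 comparisons, and most clearly apart from 50 to 200 kb for WT High without dHx High (62.8% against 56.5%).

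Weak peaks went unmatched most often. WT High desert peaks without a dHx High peak had a median score of 3.97, against 9.29 for those with one. In the top tertile of scores, 222 of 712 WT High desert peaks (31.2%, 27.8 to 34.7) had no dHx High peak, against 27.0% (24.6 to 29.6) at 50 to 200 kb and 15.0% of all peaks of that tertile. The reverse was 42 of 361 dHx High desert peaks (11.6%), against 8.94% and 5.97%. So among strong peaks the deserts still exceeded all peaks, and their interval overlapped that at 50 to 200 kb.

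Regions that followed RFP in both alleles were few. The 4 RFP-positive lists and neither Negative list held 137 desert regions (2.31%), close to the 2.15% of all regions, and both Negative lists and no RFP-positive list held 218 (3.68%, 3.21 to 4.19), against 2.90% of all. Markers of other tissues differed in whether they moved with this split. Tfap2c, active in trophoblast and germ cells, had 1 peak within 50 kb in each RFP-positive list and 5 and 8 in the Negative lists. Tal1, a factor of blood formation, had 2 to 5 against 6 and 9, and Elf5, of the extraembryonic ectoderm, had 1 or 2 in every list. Kdr, of blood and vessel precursors, had 4 in WT High, 2 in WT Middle and none in WT Negative, and 2 in dHx High and Middle against 4 in dHx Negative. Tbx6, of the presomitic mesoderm, had 8 to 12 in every list. Their part in the desert patterns was not tested.

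Regions that differed by allele in the RFP-positive lists were uneven. WT High and WT Middle, but neither dHx High nor dHx Middle, held 239 desert regions (4.03%, 3.54 to 4.56), against 3.02% of all regions. The reverse held 46 (0.776%, 0.568 to 1.03), against 1.20% of all. Both patterns leave the Negative lists open. Of the 239, 63 (1.06% of desert regions, against 0.974% of all) were in no Negative list. Of the rest, 36 were also in WT Negative alone, 41 in dHx Negative alone and 99 (1.67%, against 1.10% of all) in both. Of the 46, 25 (0.422%, against 0.605% of all) were in no Negative list. The ratio of the WT-side to the reverse count was 5.20 in deserts, 3.09 at 50 to 200 kb and 2.51 over all regions. In lists of equal length, an alternative chosen after the first counts were seen, the counts were 171 and 62 in deserts, a ratio of 2.76. At 50 to 200 kb they were 215 and 150 (ratio 1.43), and over all regions 1795 and 1625 (ratio 1.10). Equal length thus brought the ratio over all regions close to even, while that of the deserts stayed above it. The WT-side share in deserts was then 3.54% (3.03 to 4.10) against 2.28% of all regions, and the dHx-side share 1.28% (0.984 to 1.64) against 2.06%. Equal length does not equalize depth, and the background in both RFP-positive WT lists was higher than in the dHx list of the same level.

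The deserts with the most regions were mostly wide, and several were flanked by genes of cell adhesion or axon guidance. Deserts are named by their flanking genes, and a 1-Mb bin dense in regions was left out of this ranking. Zeb2-Acvr2a, between a repressor of epithelial genes and an activin receptor, had 44, as did Cntnap5b-Cdh20, between a neurexin-family gene and a cadherin. Adgrl2-Adgrl4, between adhesion G protein-coupled receptors, had 41, Lrrc4c-Iftap 39 and Dsel-Cntnap5a 36. Camk1g-Plxna2 and Dok5-Cbln4 had 35 each in much shorter deserts, which gave 41.2 and 46.3 regions per Mb where Zeb2-Acvr2a had 13.3. Got2-Cdh8 had 35 and Celf4-Pik3c3 33. In these 9 deserts dHx Negative held the most regions or as many as any other list, as it did over all desert regions (43.9%). Celf4-Pik3c3 had 3 regions in dHx High and 12 in WT High, lists that held 25.3% and 42.3% of all desert regions. In Zeb2-Acvr2a, WT High held 19 regions, WT Middle 13, WT Negative 17, dHx High 11, dHx Middle 7 and dHx Negative 22.

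Some deserts followed RFP more than others. Zfp608-Gramd3, beside a zinc finger gene on chromosome 18, led the RFP-positive pattern with 5 of its 25 regions. WT High held 11 regions there, WT Middle 9, dHx High 12 and dHx Middle 15, while WT Negative held 1 and dHx Negative 5. The regions of the pattern were spread from 211 to 993 kb from Zfp608. Vrk2-Ccdc85a came next with 3, but 2 of these, 38.6 kb apart, had the same width (643 bp) and the same score in each of the 4 lists, so they may count 1 sequence. The same was true of both regions of the pattern in Gm36448-Dad1, 311 kb apart. Such twins, looked for after the data were seen, made up 9 of the 1092 desert regions in 4 or more lists (0.824%), against 1.34% of all such regions. On the Negative side, Zeb2-Acvr2a led with 5 regions, 3 of them within 442 kb of Acvr2a, followed by Mki67-Mgmt with 4, between the Ki-67 proliferation gene and a DNA repair gene. Got2-Cdh8, Auts2-Castor2 and Gm40892-Flrt2 had 3 each.

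The allele patterns were led by D3Ertd751e-Pcdh10, beside a protocadherin gene, with 5 regions in WT High and Middle and in neither dHx High nor Middle. Of those, 4 were also in WT Negative and all were in dHx Negative. WT High and WT Middle held 9 regions each in this desert, dHx High 5, dHx Middle 9, WT Negative 12 and dHx Negative 13. Gm36448-Dad1 had 4 and Pcdh7-G6pd2, Dhx35-Gm826 and Nxph1-Ndufa4 3 each. The reverse pattern had no more than 2 in any desert, in Fut8-Gm6657 and Hs3st4-4930571K23Rik, and 1 in Cntnap5b-Cdh20, Lrrc4c-Iftap and Kcnt2-Cdc73. The T cell receptor desert Gm36448-Dad1 stood apart in another way: WT High held 44 of its 67 regions, against 19 and 14 in WT Middle and Negative and 15, 11 and 30 in dHx High, Middle and Negative. Over all desert regions WT High, Middle and Negative held 42.3%, 35.3% and 33.6%, and dHx High, Middle and Negative 25.3%, 27.7% and 43.9%. The dense bin of Gm36448-Dad1 had 51 regions, 12 of them in WT High alone, where 12.6% of all desert regions were in WT High alone.

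**Figure D4:**
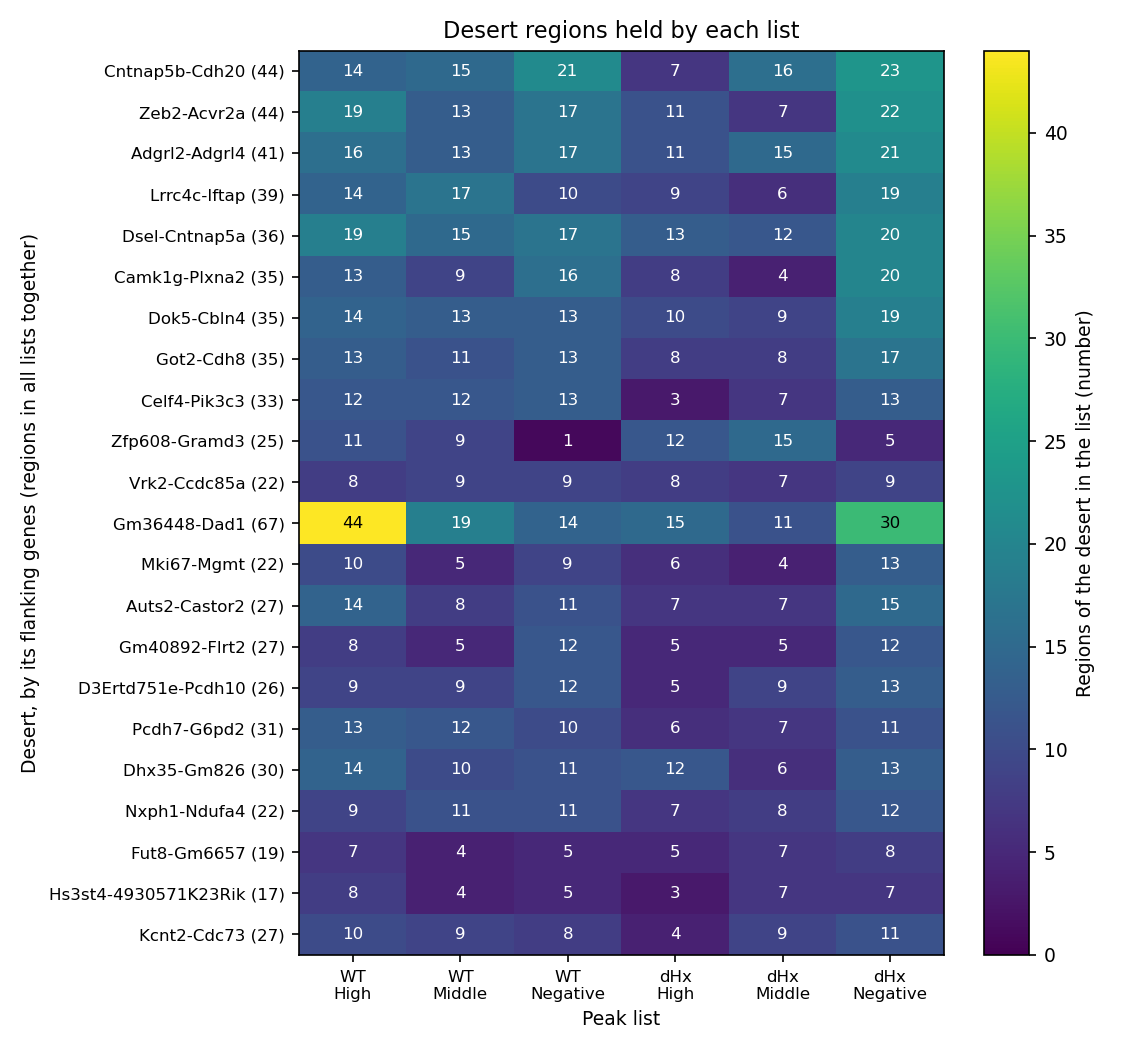
The number of desert regions that each peak list (columns) holds in each of the named deserts (rows, with the number over all lists in brackets). Zfp608-Gramd3 has 1 region in WT Negative and 15 in dHx Middle, and Gm36448-Dad1 has 44 in WT High.

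Gene lists were put against the flanks of the deserts. Of 20560 protein-coding genes, 1124 (5.47%) flanked a desert with a region. Of genes for cell adhesion and synaptic proteins 50 of 65 did (76.9%), with a median of 20 regions in the deserts beside each. Adgrl2, a latrophilin, had 72, Lrrc4c, a netrin-G ligand, 61, Cntnap5b 58 and Cdh8 56. Of neural and epiblast factors 32 of 65 (49.2%) flanked a desert, of mesoderm factors 17 of 40 (42.5%), of signalling ligands, receptors and antagonists 22 of 55 (40%), of endoderm factors 6 of 20 (30.0%) and of node and notochord factors 3 of 20 (15.0%). None of 28 ubiquitous genes did. Of 722 stretches between genes long enough to hold a desert region, 634 did. So these shares say mostly which genes border long stretches, and do not show that open regions favour a gene list. Counts beside a gene were not scaled to the width of its deserts. The gene lists were chosen with earlier results of the data known and carry no test.

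Among the neural and epiblast factors, Zeb2 had 44 desert regions, the Iroquois homeobox gene Irx1 29, the nuclear receptor gene Nr2f1 27 and the zinc finger gene Bcl11a 26. Of the regions beside Irx1, 3 were in the 4 RFP-positive lists and neither Negative list, and of those beside Nr2f1, 3 were in both Negative lists and no RFP-positive list. Bcl11a had 16 regions in WT High and 3 in WT Middle. Among the mesoderm factors Bmp2, Meis1 and Mef2c followed Nr2f1 with 23 each. Beside Bmp2, a BMP ligand, WT Negative held 4 regions and the other lists 7 to 10. Among the signalling genes, the ephrin receptor gene Epha7 had 36 regions, its ligand family member Efnb2 28, Bmp2 23 and Robo1, a receptor of Slit, 18. Epha7 had 16 regions in WT Middle and 6 in dHx Middle, and Robo1 had 8 in WT High and 2 in dHx High. Other signalling genes did not go this way: Slit2 had 7 in both High lists, and Fgf9 had 1 in WT High and 3 in dHx High. Over all desert regions, WT High held 42.3%, WT Middle 35.3%, dHx High 25.3% and dHx Middle 27.7%.

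Among the endoderm factors, the 6 beside a desert had a median of 6.5 regions, against 8 for all protein-coding genes beside one. Klf5, a Krüppel-like factor gene, had 13, Cxcr4, a chemokine receptor, 7 and Foxa2 itself 6. The Foxa2 regions lay in Pax1-Foxa2 on chromosome 2, 244 to 423 kb from Foxa2. Of these, 5 were in a single list, as were 54.2% of all desert regions. None was in dHx High or dHx Middle, which hold 25.3% and 27.7% of desert regions, so this is a count of few regions. The nearest (147798599 to 147799388) scored 11.7 in WT High, 5.61 in WT Middle and 3.74 in dHx Negative. The score, read here as −log10 of p or q, grows with depth, so its level is not compared between lists. Ranks are percentiles within a list. In Klf5-Klf12, between Klf5 and its relative Klf12 on chromosome 14, the region 99583938 to 99584702 scored 12.9 and 12.6 in WT High and Middle and 15.6, 27.7 and 2.24 in dHx High, Middle and Negative, with no peak in WT Negative.

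Sall1 (15 regions), Sox9 (13) and Shh (4) were the node factors beside deserts, with a median of 13, the same as for mesoderm factors. In Shh-Rnf32 on chromosome 5, the region 28903656 to 28904878, 437 kb from Shh and within the promoter window of Gm35688 shown above for 118 bases, scored 28.2 in dHx High and 14.2 in WT High. There it stood at the 90.1st and 78.2nd percentile of the peaks of its list. In WT Middle it scored 4.73, in WT Negative 5.09 and in dHx Middle 7.52, and dHx Negative had no peak. Beside Sox9, which drives cartilage and the male gonad, the region 112501736 to 112502322 on chromosome 11 in Gm11677-Sox9 lay 280 kb from the gene. It scored 52.8 in WT Negative and 63.9 in dHx Negative, at or above the 97.1st percentile of both lists, with no peak in the 4 RFP-positive lists.

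Sox2, the pluripotency and neural factor, was looked at after its values were seen. Its desert Sox2-Atp11b on chromosome 3 held 20 regions, and 6 of them stood between 748 and 766 kb from Sox2. Of those 6, the region 35418259 to 35419056 was in all 6 lists, with scores of 70.7, 38.0 and 43.3 in WT High, Middle and Negative, and 24.9, 33.9 and 63.9 in the same gates of dHx. The region 35401599 to 35402810 of the same cluster scored 117, 79.5 and 24.2 in WT High, Middle and Negative, and 8.67 and 21.5 in dHx Middle and Negative. In dHx High it had no peak. Gm35255, a lncRNA gene of this desert, had a region in its promoter window in both Middle lists and dHx High.

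Single regions were ranked by the lowest percentile of their score over the lists that hold them. Of the regions in all 6 lists, those ranked highest were narrow. The region on chromosome 12 from 93576907 to 93577251, in Gm40892-Flrt2 and 682 kb from Gm40892, is 345 bp wide. It scored 475, 336 and 585 in WT High, Middle and Negative, and 267, 316 and 670 in the same gates of dHx, at or above the 99.8th percentile in each list. Others lay in Gpd2-Galnt5 (chromosome 2, 57629488 to 57629725, 238 bp) and Plk2-Actbl2 (chromosome 13, 110743865 to 110744546, 682 bp). These 3 were narrower than the median of 952 bp for desert regions in all 6 lists. The sources used here do not say whether sites that collect reads in every library were masked, and that was not tested. The longest desert regions were 10391 bp, in Sall3-Galr1, and 10190 bp, in Pex2-1700008P02Rik, both in all 6 lists.

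The highest-ranked region of the RFP-positive pattern lay on chromosome 12 from 39740645 to 39741842 in Etv1-Arl4a, 871 kb from Etv1, an ETS factor gene, and 292 kb from Arl4a. It scored 50.0 in WT High, 25.9 in WT Middle, 60.8 in dHx High and 27.7 in dHx Middle. It stood at or above the 87.4th percentile in each of these lists, and neither Negative list had a peak. Regions in Adra2a-Gpam (chromosome 19, 54353339 to 54354106), Sox14-Il20rb (chromosome 9, 100094896 to 100096191) and Kctd16-Prelid2 (chromosome 18, 41047600 to 41048534) followed. After the Sox9 region, the Negative pattern had regions in Nucb2-Xylt1 (chromosome 7, 117002053 to 117003129), Sorcs3-Sorcs1 (chromosome 19, 49022283 to 49022788) and Megf9-Gm11232 (chromosome 4, 70958831 to 70959247), with scores of 15.6 to 25.3.

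Of the WT-side regions, the highest-ranked lay on chromosome 10 from 106191525 to 106191948 in Ccdc59-Ppfia2. It scored 34.0, 61.8 and 32.7 in WT High, Middle and Negative, and 47.3 in dHx Negative, so it was absent from both RFP-positive dHx lists and present in the dHx Negative list. The second, on chromosome 12 from 59754147 to 59755653 in Fbxo33-Gm32936, was in WT High (29.5) and WT Middle (35.3) only, at or above the 91.8th percentile. Those in Dph6-BC052040 (chromosome 2, 114864830 to 114865150) and Pou3f2-Mms22l (chromosome 4, 24193772 to 24195021) were inside the lncRNA genes Gm13974 and Gm27243 and were also in dHx Negative. The lowest percentiles were 50.3 to 67.0 for the 4 named dHx-side regions and 80.3 to 93.8 for the 4 of the WT side. Those were the highest-ranked of 46 and of 239 regions. The top of a larger set tends to rank higher, so the sides are not compared by them. The first of the dHx side, on chromosome 2 from 133783610 to 133783906 in Bmp2-Hao1, 221 kb from Bmp2, scored 11.3 in dHx High and 13.6 in dHx Middle. The others lay in Sall3-Galr1 (chromosome 18, 81872798 to 81873877), Icos-Pard3b (chromosome 1, 61419927 to 61420203) and Tnp1-Tns1 (chromosome 1, 73665967 to 73666422), with dHx High scores of 7.26 to 9.88.

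**Figure D5:**
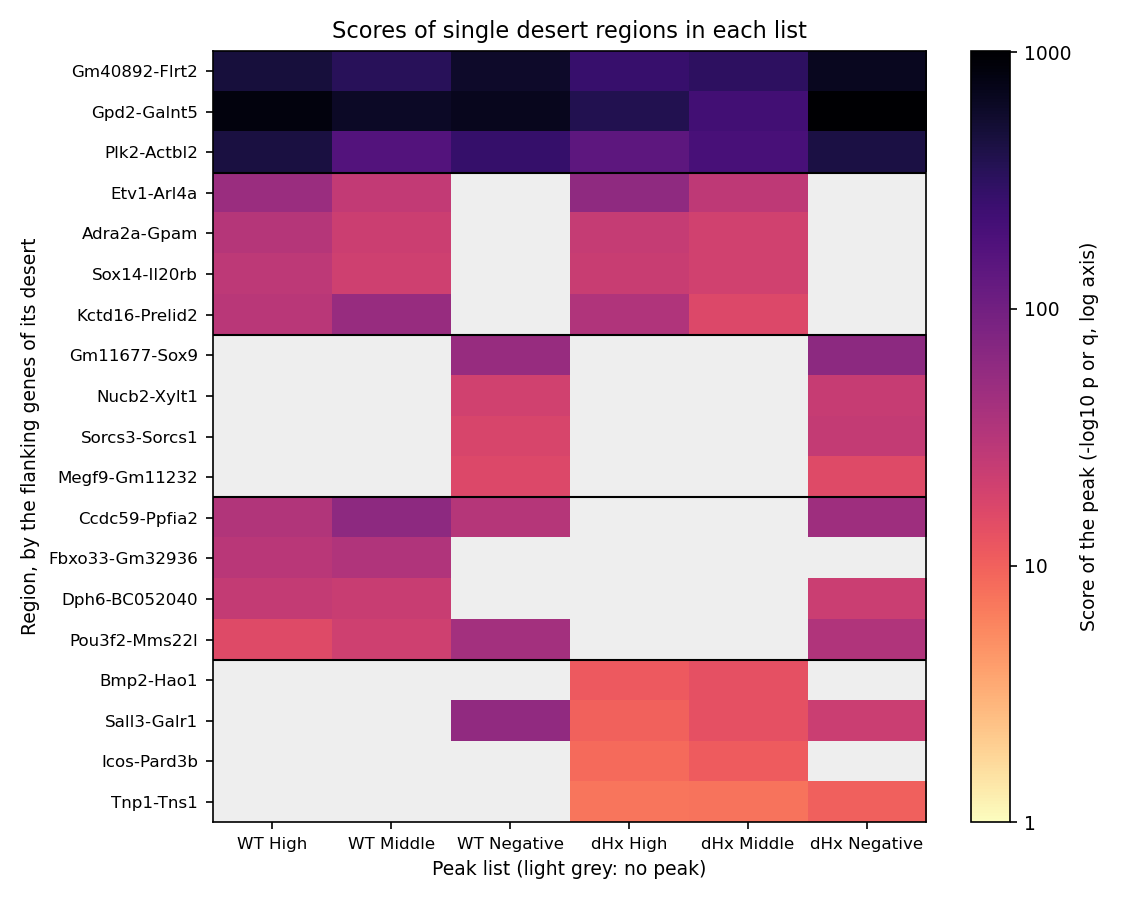
Scores (colour, −log10 of p or q on a log axis) of 19 single desert regions in each peak list, with light grey where the list has no peak, in blocks: all lists (3 regions), then 4 each for RFP-positive, Negative, WT side, dHx side. Regions in all lists score 142 to 1014, and grey cells show which lists lack a region. Colours in different columns also reflect the depth of the list.

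Starts of lncRNA genes were seldom open in deserts. Of 1023 RefSeq promoter windows of 300 bases in deserts, 66 (6.45%, 5.02 to 8.13) overlapped a region, against 24.4% of lncRNA windows elsewhere and 63.2% of windows of protein-coding genes. Regions of any kind were also sparser in deserts, with 12.8 per Mb against 44.8 elsewhere, so the low share is not particular to lncRNA starts. The 66 windows belonged to 61 genes and 58 regions. Of these regions 8 (13.8%) were in all 6 lists, against 5.38% of all desert regions, and 19 (32.8%) were in a single list, against 54.2%. These are small counts. Of the genes, 3 had the RFP-positive pattern and none the Negative pattern. Over all desert regions these patterns made up 2.31% and 3.68%, so the counts are too small to show a lean to either side. Gm40604, in Nmbr-Cited2 and 988 kb from the nearest protein-coding gene, scored 11.7 in WT High, 7.47 in WT Middle, 14.1 in dHx High and 5.33 in dHx Middle. Gm32050 scored 11.7, 16.0, 8.55 and 20.4 in the same order, and Gm46343, in Id2-Rnf144a, 4.95, 5.61, 7.26 and 5.33.

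Forkhead matches were found in 7 of the 66 open desert windows (10.6%) and in 100 of all 1023 desert lncRNA windows (9.78%). They were in 8.45% of lncRNA windows elsewhere and in 7.54% of the open ones there. Of all 31396 windows, of which 20085 belong to protein-coding genes, 6.64% had one. The desert windows had a lower share of G and C, with a median of 44.0% against 49.0% for lncRNA windows elsewhere and 53.0% for all windows. The open desert windows had 48.7%, and the open lncRNA windows elsewhere 58.3%. The CTCF motif AGNNGGCGC was in 4 of the 66 open windows (6.06%) and in 1.17% of all desert windows. It was in 10.4% of the open lncRNA windows elsewhere, 3.94% of all lncRNA windows there and 7.38% of all windows. The SOX motif CATTGT was in 18 of the 66 (27.3%) and in 23.6% of desert windows. It was in 9.17% of the open lncRNA windows elsewhere, 14.5% of all lncRNA windows there and 12.2% of all windows. Motifs were searched on both strands and may overlap each other.

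Hairpins of microRNA genes in deserts were set against the regions by position. Of 44 hairpins, 4 were overlapped and 13 lay within 10 kb of a region, and each overlapping region was in a single list. Mir802 on chromosome 16, in the desert between Runx1 and Setd4, was covered by a dHx High region (93369508 to 93369965, score 9.88). Mir344c and Mir344g on chromosome 7, beside Ndn in Gm51483-Ndn, were touched by a dHx High (score 3.70) and a WT High region (10.5). Their mature sequences from RefSeq follow, with the seed (bases 2 to 8) in capitals, and both 5p arms of the Mir344 genes share the seed GUCAGGC.
mmu-miR-802-5p: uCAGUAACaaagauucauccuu
mmu-miR-344c-5p: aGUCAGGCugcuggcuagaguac
mmu-miR-344g-5p: aGUCAGGCuccuggcaggagu
These regions are weak and single, and no RNA was measured in the files used here.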

How the data were processed

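Chromatin was profiled by paired-end ATAC-seq, per the labels' protocols, and the submitters' processing notes name mm10, STAR 2.5.2a and MACS2 without their roles. The authors deposited 1 peak list per group, pooled over its 2 samples per the peak names. The deposited score was read as −log10 of either a p-value or a q-value, and no source used here says which. Rows with the same start and end were merged, and chromosomes 1 to 19 were used. Peaks overlapping by 1 bp or more were joined over the lists into regions, and a desert region lay more than 200 kb from all 20560 RefSeq protein-coding genes (GRCm38.p6). 105 genes placed on scaffolds were left out. Shares carry Clopper-Pearson 95% intervals, and nothing was tested, since no list has a replicate. Of 298 listed genes 288 matched. Named deserts hold the most regions outside dense bins or the most of each pattern, and named single regions have the highest lowest percentile; some that these rules chose are not reported here. Members and gene lists were chosen with earlier results of these data known. Motifs in the regions themselves were not analysed here, for want of the genome sequence. Counting was checked on simulated data. Python 3.11.15, numpy 2.4.6, pandas 2.3.3, scipy 1.17.1 and matplotlib 3.10.9 were used.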

Additional observations from a re-analysis of the deposited data

Results flagged for a closer look

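The share of peaks in deserts, High minus Negative, was 0.46 percentage points in WT and -1.25 percentage points in dHx. These have opposite signs in the alleles, and the difference between them was not tested, since each group has a single pooled list. The WT sign did not hold among stronger peaks. With the 20000 strongest peaks the shares were 4.44% in WT High and 4.75% in WT Negative, and in the strongest decile 3.47% and 3.62%, so WT was then negative too, as dHx was (3.38% against 4.46%, and 1.68% against 3.01%).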

How the results depend on the processing

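Shares are given in this order: WT High desert peaks without a WT Negative peak (63.6% as reported), WT High without dHx High (62.8%), WT Negative without WT High (54.1%), dHx High without WT High (37.9%), dHx High without dHx Negative (54.0%) and dHx Negative without dHx High (73.4%). With the 20000 strongest peaks set against the whole other list they were 44.8%, 36.3%, 37.1%, 21.2%, 41.3% and 53.0%, and for the top tertile of scores, chosen after seeing the data, 41.3%, 31.2%, 29.5%, 11.6%, 33.0% and 47.7%. With lists of equal length they were 59.2%, 56.1%, 56.9%, 42.9%, 60.3% and 67.4%, and 51.5% of regions were in a single list. With 50% overlap of both peaks they were 72.1%, 70.9%, 65.2%, 51.6%, 66.8% and 80.9%, with 65.4% of regions in a single list, 1.73% in all 6 and 78 of the RFP-positive pattern. With genes of every kind bounding a desert, 487 regions were left, the shares were 59.1%, 66.5%, 58.5%, 31.6%, 45.9% and 76.6%, 55.6% were in a single list, 6.16% in all 6, and the RFP-positive and Negative patterns had 11 and 24. At 100 kb there were 10366 regions, 52.9% in a single list, patterns of 269 and 367, and 60.9% of WT High peaks without dHx High. At 500 kb there were 1868, with 56.3% in a single list, 6.10% in all 6, patterns of 31 and 63, 60.4% of WT High peaks without WT Negative and 50.1% of dHx High peaks without dHx Negative. Leaving out regions near antigen receptor segments, or the dense bin, moved none of these 11 results. The forkhead share of the desert regions and its alternatives were not run. No paired analysis was possible because each group has 1 pooled list.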
